A study of Mus musculus with 7 samples.

Results

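Annexins, S100 proteins, galectins and EMP1 were followed through 10 genes: the S100 genes S100a4, S100a6, S100a10 and S100a11, the annexin genes Anxa1, Anxa2 and Anxa3, the galectin genes Lgals1 and Lgals3, and the epithelial membrane protein gene Emp1. They are 10 of 25655 genes in the table, and all 10 had enough counts to be fitted. They had been picked from earlier results of the same comparison, in which they lay lower with the Tppp3 vector. Their differences between the groups are therefore only described, and nothing is read from the test counts given for them. The samples were whole retinas of wild-type C57BL/6 mice, all taken 2 days after crush of the optic nerve. The eyes had been given AAV2, a gene-delivery virus with a preference for retinal ganglion cells, that carried either a Tppp3 overexpression construct (3 libraries) or a control construct named CMV-control in the protocol (3 libraries). The labels state neither the promoter in front of Tppp3 nor the age of the mice. The stated aim was to find what lies behind axon regrowth and ganglion cell survival under Tppp3, a gene for a tubulin polymerization-promoting protein.

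S100 proteins are small EF-hand proteins, most of which bind calcium and then grip partner proteins. Annexins bind membrane phospholipids when calcium rises and take part in membrane repair, vesicle traffic and the ending of inflammation. Some members work as partners: S100A10 pairs with ANXA2 at the membrane and helps to gather plasminogen there, and S100A11 binds ANXA1. Galectins bind sugars on cell surfaces and matrix, and EMP1 is a membrane protein of the PMP22 family. In mouse, Emp1 and S100a10 are among the genes described for reactive astrocytes, Lgals3 is known from activated microglia and macrophages, and most of the 10 are also abundant in epithelia, fibroblasts and vessel walls.

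A window of 300 bases around the start, of which 250 lie before it, was read for the members that RefSeq's promoter table lists (build GRCm38.p6). These were 7 of 10: S100a4, S100a6, S100a11, Anxa1, Anxa2, Lgals3 and Emp1. The AP-1 site TGANTCA, read on both strands, was found in a 300-base window of 3 of these 7 genes, and 7.81% of all 32851 windows held it. Emp1 has 2 listed starts, and the window of the second held no match, so a count by gene is not a share of windows. The 250 bases before the start of these 3 genes are shown 5′ to 3′ because they hold the shared motif (for Emp1, those of its first listed start), with each AP-1 match in capitals. They lie on the plus strand at chr3:93520246-93520495 for S100a11, chr9:69453433-69453682 for Anxa2 and chr6:135362681-135362930 for Emp1.
S100a11: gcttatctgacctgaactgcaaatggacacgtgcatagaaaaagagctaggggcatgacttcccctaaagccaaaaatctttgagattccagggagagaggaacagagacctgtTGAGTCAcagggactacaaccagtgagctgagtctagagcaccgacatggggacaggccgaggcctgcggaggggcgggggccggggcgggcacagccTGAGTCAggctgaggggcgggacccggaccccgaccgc
Anxa2: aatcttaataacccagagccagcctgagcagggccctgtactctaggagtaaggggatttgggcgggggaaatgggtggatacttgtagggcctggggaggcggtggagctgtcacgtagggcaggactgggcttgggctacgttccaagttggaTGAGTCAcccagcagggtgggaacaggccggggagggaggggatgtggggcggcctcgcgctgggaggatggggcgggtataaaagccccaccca
Emp1: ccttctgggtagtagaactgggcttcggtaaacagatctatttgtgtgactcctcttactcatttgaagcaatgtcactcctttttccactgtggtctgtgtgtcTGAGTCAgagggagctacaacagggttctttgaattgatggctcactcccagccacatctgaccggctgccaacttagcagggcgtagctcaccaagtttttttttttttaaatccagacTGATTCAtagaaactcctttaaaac
S100a11 had matches at -136 to -130 and at -38 to -32 from the start, Anxa2 at -95 to -89, and Emp1 at -145 to -139 and at -25 to -19. Emp1 also held the STAT-type sequence TTCNNNGAA at -120 to -112 and at -22 to -14, the second overlapping its AP-1 match. That sequence was in 1 of the 7 genes and in 8.3% of all windows. A TATA box (TATAAA) was in S100a4, Anxa1 and Anxa2, and in 13.6% of all windows, and the GC box GGGCGG in Anxa2, Emp1, Lgals3 and S100a11, and in 35.7%. The GC box of Emp1 lay after the start, at 15 to 20, and Lgals3 had matches at -7 to -2 and at 5 to 10. The TEAD-type sequence GGAATG was in Anxa1 alone among the 7 (14.7% of all windows), and the CRE TGACGTCA and the CArG box were in none of them (1.79% and 1.63%). A match is a run of letters and not a shown binding site.

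The Tppp3 libraries held 19961359 to 21843892 gene counts and the control libraries 10961443 to 16218074, with no overlap in depth between the groups. The vector's gene was higher in each Tppp3 library than in any control library: Tppp3 stood at 53.7, 36.5 and 41.8 CPM with the Tppp3 vector and at 18.7, 22.2 and 28.0 CPM with the control vector. CPM are counts scaled to library size, here with TMM factors. Y-linked counts set control replicate 1 and Tppp3 replicate 2 apart from the other 4 libraries. One library stood out for the genes followed here: control replicate 3, the shallowest, held the highest level of all 10 of them, and Tppp3 replicate 3 the lowest of 6. The values of the 10 genes that depend on these libraries are given also without them.

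The Tppp3 libraries lay lower for most of the 10 genes. All 10 had a negative log2 fold change, from -0.70 for Lgals1 to -0.06 for S100a10, with a median of -0.51, against a median of 0.0030 over all 14750 genes tested, of which 49.1% were negative. For 7 of the 10 every Tppp3 library was below every control library, a pattern seen in 7.02% of all tested genes, while 6.92% showed the opposite one. In edgeR's quasi-likelihood test, adjusted over all genes, 0 of the 10 passed 0.05 and 2 genes of all passed as lower (0.0136%). Before adjustment, 7 of the 10 had a p under 0.05 in edgeR, against 3.55% of all genes as lower and 3.67% as higher. DESeq2's Wald test placed 1 of the 10 past the threshold, Lgals1 (0.0814% of all genes as lower), and limma's voom 0 (0.00678%). Since these values chose the genes, nothing is read from the counts. Whole retina was sequenced, so fewer cells of a type and less RNA per cell cannot be told apart.

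**Figure D1:**
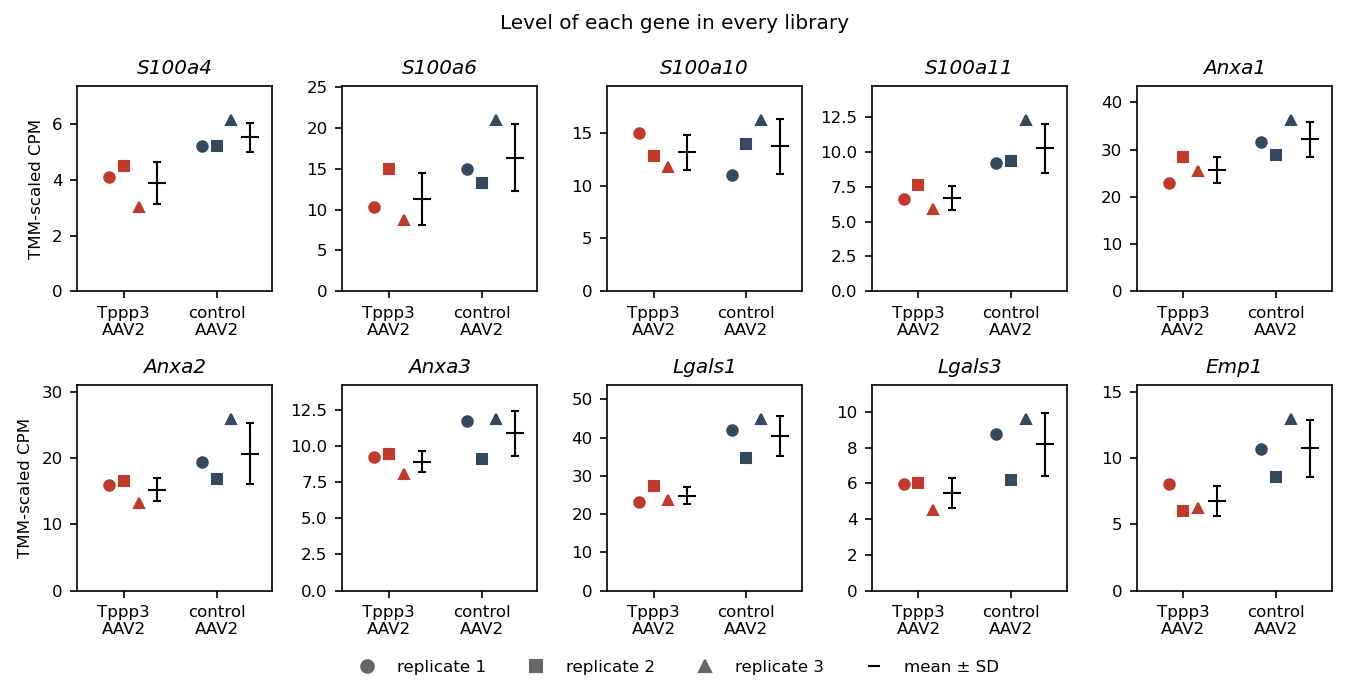
TMM-scaled CPM (y axes, each from 0) of the 10 genes in the 3 Tppp3 AAV2 libraries (red) and 3 control AAV2 libraries (dark blue), with the marker shape giving the replicate and the dash and bar the mean ± SD. The groups do not overlap for 7 genes, they overlap for S100a6, S100a10 and Anxa3, and control replicate 3 is the highest library in every panel.

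S100a11, whose product binds ANXA1, had 6.66, 7.62 and 5.89 CPM in the Tppp3 libraries and 9.19, 9.34 and 12.3 CPM in the controls. The groups did not overlap, and the means were 6.72 ± 0.869 and 10.3 ± 1.75 CPM (SD, n = 3 each). Its log2 fold change was -0.61 ± 0.16 (SE), a level 65.6% of that in the controls. S100a4, a gene of motile and mesenchymal cells, had 4.12, 4.51 and 3.04 CPM in the Tppp3 libraries and 5.22, 5.22 and 6.15 CPM in the controls. It was the lowest of the 4 S100 genes in CPM and rested on 64 to 100 counts in the Tppp3 libraries and 59 to 85 in the controls. Its log2 fold change was -0.50 ± 0.21, without overlap between the groups.

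S100a6, or calcyclin, had 10.4, 14.9 and 8.69 CPM in the Tppp3 libraries and 14.9, 13.2 and 21.0 CPM in the controls. Tppp3 replicate 2 was level with control replicate 1 and above control replicate 2, so the groups overlapped. The log2 fold change was -0.52 ± 0.25, and it was -0.31 without control replicate 3 and -0.32 with the pigment epithelium level as covariate. The spread among replicates was wider than counting alone gives: the coefficient of variation was 28.5% in the Tppp3 libraries and 24.9% in the controls, where counting error was 6.63% and 7.03%.

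S100a10, the partner of ANXA2, differed from the other 3 S100 genes in having almost the same mean in both groups. It had 15.0, 12.8 and 11.7 CPM in the Tppp3 libraries and 10.96, 13.95 and 16.2 CPM in the controls, which spanned all 3 Tppp3 values. The means were 13.2 ± 1.67 and 13.7 ± 2.62 CPM (SD, n = 3 each), with a log2 fold change of -0.06 ± 0.15. The sign turned to 0.07 without control replicate 3 and to 0.02 without Tppp3 replicate 3, so no direction is given for S100a10. S100a10 and S100a11 are parted only by the predicted gene Gm29950 on chromosome 3, and S100a4 and S100a6 are parted only by S100a5 on the same chromosome, in RefSeq's gene order (GRCm38.p6). S100a5 had a count of 0 in all 6 libraries.

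Anxa2, whose product links membrane and actin and pairs with S100A10, had 15.9, 16.6 and 13.3 CPM in the Tppp3 libraries and 19.4, 16.8 and 25.8 CPM in the controls. The highest Tppp3 library and the lowest control library were nearly level, though they did not overlap. The log2 fold change was -0.43 ± 0.16, and it was -0.25 without control replicate 3. Anxa1, known for damping inflammation through formyl peptide receptors, was the most abundant annexin among the 3 in CPM. It had 23.0, 28.4 and 25.5 CPM in the Tppp3 libraries and 31.6, 28.9 and 36.2 CPM in the controls. Here too the groups did not overlap, by a small margin, with a log2 fold change of -0.33 ± 0.10.

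Anxa3, an annexin of endothelial and microglial cells among others, had 9.25, 9.43 and 8.07 CPM in the Tppp3 libraries and 11.8, 9.10 and 11.8 CPM in the controls. Control replicate 2 fell within the Tppp3 range. The log2 fold change was -0.28 ± 0.14, and in the Tppp3 libraries the coefficient of variation of Anxa3, 8.26%, was close to its counting error of 7.33%.

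The 2 galectin genes lay apart without overlap. Lgals1, whose product cross-links surface glycans, had 23.3, 27.4 and 23.7 CPM in the Tppp3 libraries and 41.9, 34.6 and 44.7 CPM in the controls. Its means were 24.8 ± 2.27 and 40.4 ± 5.23 CPM (SD, n = 3 each). The log2 fold change was -0.70 ± 0.11, a level 61.6% of that in the controls, and leaving out any 1 library moved it no further than -0.80 to -0.62. The raw counts of Lgals1 were 458, 608 and 500 in the Tppp3 libraries and 474, 563 and 495 in the shallower controls. Thinned to equal library totals, Lgals1 had a log2 fold change of -0.73. Lgals3 had 5.94, 6.00 and 4.51 CPM in the Tppp3 libraries and 8.75, 6.21 and 9.58 CPM in the controls, with a log2 fold change of -0.57 ± 0.20. Control replicate 2 stood just above the Tppp3 range.

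Emp1, a tetraspan protein of epithelia and reactive astrocytes, had 8.08, 6.04 and 6.22 CPM in the Tppp3 libraries and 10.7, 8.60 and 12.9 CPM in the controls. The groups did not overlap, the lowest control library lying a little above Tppp3 replicate 1. The log2 fold change was -0.66 ± 0.18, and with 1 library left out at a time it lay between -0.81 and -0.51.

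**Figure D2:**
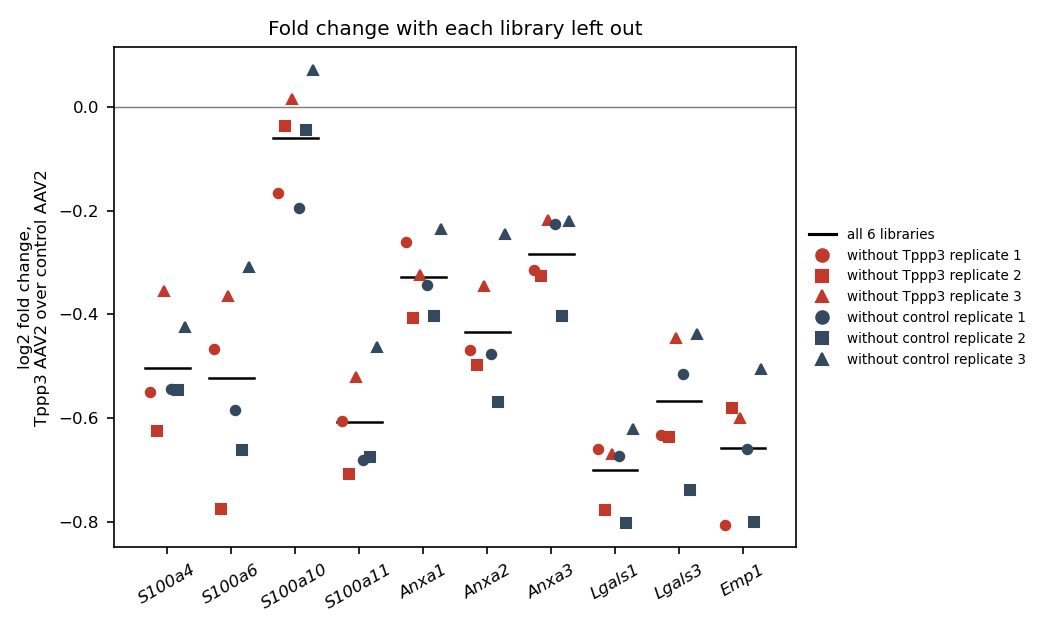
Log2 fold change of each gene, Tppp3 AAV2 over control AAV2 (y axis), with all 6 libraries (black line) and with each library left out (points; red for a Tppp3 library, dark blue for a control). Leaving out control replicate 3 or Tppp3 replicate 3 brings every gene other than S100a10 nearer to 0, and takes S100a10 across it.

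Seen library by library, the genes also differed within the groups. Centred on the mean of the 6 libraries, the median of the 10 genes on the log2 scale was -0.15, -0.07 and -0.42 in Tppp3 replicates 1, 2 and 3, and 0.17, 0.02 and 0.51 in control replicates 1, 2 and 3. Control replicate 2 was thus the control nearest to the Tppp3 libraries. Without control replicate 3 the median log2 fold change of the 10 was -0.37, and without Tppp3 replicate 3 it was -0.36. In both cases 9 of 10 were negative. Without overlap were 7 in both cases, where the share over all tested genes was 11.9% without control replicate 3 and 11.4% without Tppp3 replicate 3. Anxa2 kept closest to that common profile, with a root mean square distance of 0.042, and S100a10 farthest, with 0.26.

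Ratios between partners varied among the libraries. The ratio of S100a10 to Anxa2 CPM was 0.943, 0.771 and 0.882 in the Tppp3 libraries and 0.564, 0.832 and 0.626 in the controls, so the groups overlapped. That of S100a11 to Anxa1 was 0.290, 0.268 and 0.231 in the Tppp3 libraries and 0.291, 0.323 and 0.339 in the controls, with Tppp3 replicate 1 just under control replicate 1. The ratio of Lgals1 to Lgals3 overlapped widely, at 3.92, 4.57 and 5.26 in the Tppp3 libraries and 4.79, 5.57 and 4.67 in the controls. These ratios come from the values that chose the genes and were not tested.

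Per kilobase of transcript, with lengths from GENCODE M21, Lgals1 was the most abundant of the 10, at 29.1 to 34.3 CPM per kilobase in the Tppp3 libraries and 43.3 to 55.9 in the controls, above every other member in each group. Emp1 was the least abundant, at 2.08 to 2.78 in the Tppp3 libraries and 2.96 to 4.44 in the controls. In the Tppp3 libraries S100a10 (17.1 to 21.9 CPM per kilobase), S100a6 (11.9 to 20.4), Anxa1 (13.7 to 17.0) and S100a11 (11.5 to 14.9) came next, each overlapping its neighbour in this order. In the controls S100a6 (18.1 to 28.7), S100a11 (18.0 to 24.1), S100a10 (16 to 23.6) and Anxa1 (17.3 to 21.7) overlapped one another too. Anxa2 and S100a4 followed, at 9.19 to 11.4 and 6.10 to 9.06 CPM per kilobase in the Tppp3 libraries, and at 11.6 to 17.9 and 10.5 to 12.3 in the controls. Anxa3 and Lgals3 came after them, at 5.06 to 5.91 and 3.18 to 4.23 in the Tppp3 libraries, and at 5.70 to 7.42 and 4.38 to 6.75 in the controls.

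Relatives from the same families lay on both sides of 0. Of 35 related S100, annexin, galectin and PMP22-family genes, 32 had a row and 18 enough counts to be tested, of which 10 were negative and 8 positive, with a median log2 fold change of -0.04. In edgeR's test 0 of the 18 passed the adjusted threshold. An unadjusted p under 0.05 was found for 0, against 3.55% of all tested genes as lower and 3.67% as higher. Without overlap between the groups were 0, against 7.02% as lower and 6.92% as higher. DESeq2's Wald test and limma's voom also called 0. The relatives are what remained once the lower genes had been picked, and the contrast between both sets was not tested.

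**Figure D3:**
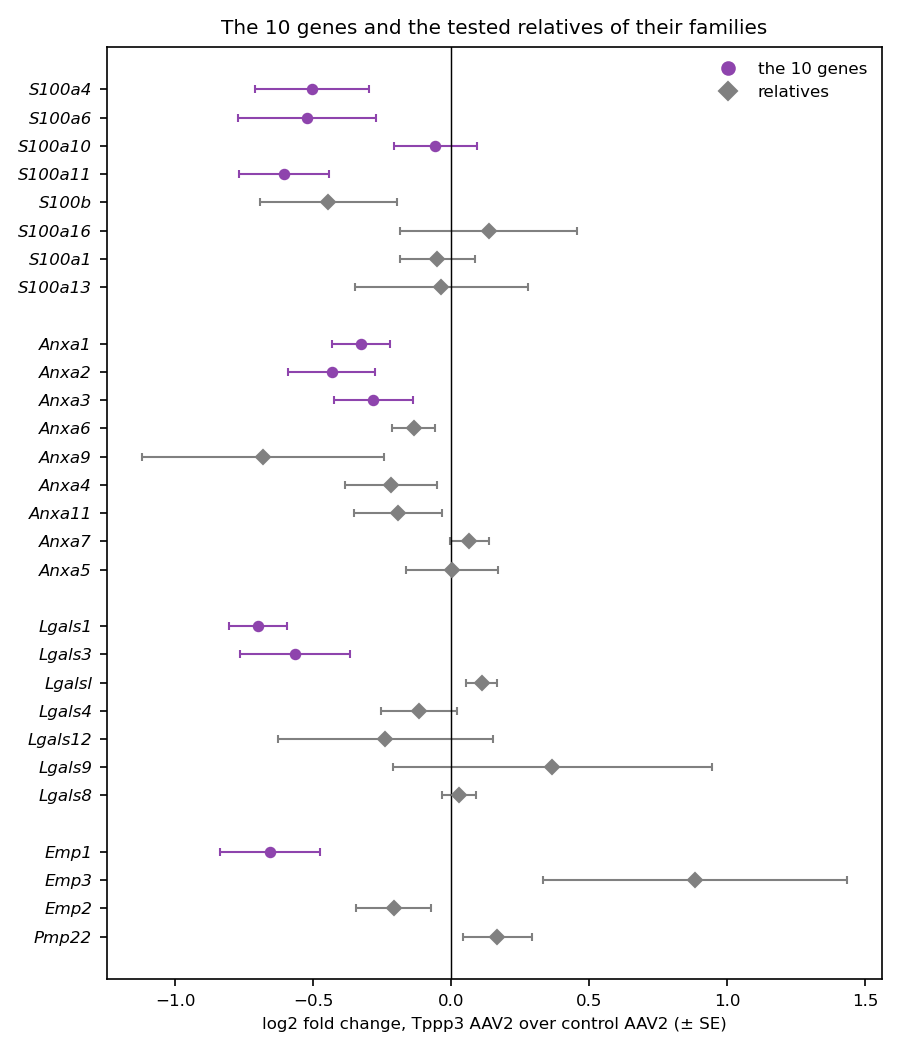
Log2 fold change ± SE, Tppp3 AAV2 over control AAV2 (x axis), of the 10 genes (purple circles) and of the 18 tested relatives (grey diamonds), by family from top to bottom. The 10 genes lie between -0.70 and -0.06, while the relatives lie on both sides of 0 and many have wide errors.

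Among S100 relatives, the glial gene S100b averaged 2.82 ± 0.203 CPM in the Tppp3 libraries and 3.84 ± 1.02 CPM in the controls (SD, n = 3 each; log2 fold change -0.45, edgeR adjusted p = 0.76). S100a16, the highest of the 4 in CPM, averaged 30.4 and 27.8 CPM (0.13, edgeR adjusted p = 0.957), and without Tppp3 replicate 2 its log2 fold change was -0.10. S100a1 and S100a13 had log2 fold changes of -0.05 and -0.04, and both turned positive without control replicate 3 (0.095 and 0.12) and without Tppp3 replicate 3 (0.023 and 0.18). The neutrophil genes S100a8 and S100a9 were near absent, with at most 4 and 8 counts in any library.

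The abundant annexins differed little in mean. Anxa5, the apoptosis probe, averaged 48.6 CPM in the Tppp3 libraries and 48.7 CPM in the controls, with a log2 fold change of 9.1e-04 ± 0.17 whose sign depended on the setting. Anxa7 averaged 49.0 and 46.8 CPM, and Anxa6 50.7 and 55.9 CPM (log2 fold change -0.14, edgeR adjusted p = 0.767). Anxa4 and Anxa11 stood at -0.22 ± 0.17 and -0.19 ± 0.16, with SEs near that of Anxa3. Without Tppp3 replicate 3 they stood at -0.10 and -0.11, and Anxa6 at -0.086, and without control replicate 3 Anxa11 stood at -0.067. Anxa9, at 0.690 and 1.14 CPM, had -0.68 ± 0.44, and -1.04 without Tppp3 replicate 2.

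The galectin-related gene Lgalsl, at 286.2 CPM in the Tppp3 libraries and 265.2 CPM in the controls, had a log2 fold change of 0.11 ± 0.057 (edgeR adjusted p = 0.73). Lgals8 (57.3 and 56.2 CPM) stood at 0.03, Lgals4 at -0.12 and Lgals12 at -0.24 ± 0.39. Lgals9, known as an interferon-responsive galectin, had 0.37 ± 0.58 and turned to -0.18 without Tppp3 replicate 1. Of the EMP1 family, Emp2 stood at -0.21 ± 0.14, the myelin gene Pmp22 at 0.17 ± 0.12, and Emp3, at 1.31 and 0.749 CPM, at 0.88 ± 0.55. With 1 library left out Emp3 lay between 0.35 and 1.64, the ends being without control replicates 2 and 3, and Pmp22 between 0.082 and 0.28, without Tppp3 replicates 2 and 3.

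Genes whose products bind or receive these proteins were also looked at. Of 20 binding partners tested, 10 were negative and 10 positive, with a median log2 fold change of 0.01 and 0 past the adjusted threshold in edgeR, DESeq2 or voom. The cytoplasmic actin genes had the smallest p. Of the 20 partners, 1 lay lower and 1 higher without overlap, against 7.02% and 6.92% of all tested genes. Actg1 averaged 521.8 CPM in the Tppp3 libraries and 640.5 CPM in the controls, without overlap (log2 fold change -0.30 ± 0.090, edgeR adjusted p = 0.648), and Actb averaged 337.4 and 387.9 CPM (-0.20 ± 0.087, edgeR adjusted p = 0.688), with a log2 fold change of -0.11 without Tppp3 replicate 3. Pdcd6ip, the gene of the membrane-repair protein ALIX, had 85.6, 86.9 and 87.1 CPM in the Tppp3 libraries and 82.8, 83.9 and 79.3 CPM in the controls (0.08 ± 0.051, edgeR adjusted p = 0.79). Ahnak2, related to the S100A10-ANXA2 partner AHNAK, stood at -0.24 (edgeR adjusted p = 0.776) and at -0.061 without control replicate 1. These 2 actin genes were the only partners of the 20 with an unadjusted p under 0.05 in that test, both as lower. Of all tested genes, 3.55% had such a p as lower and 3.67% as higher.

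Of 12 receptors tested, 5 were negative and 7 positive (median 0.05), and 0 passed in any of the 3 tools. Plxna4, a semaphorin co-receptor, averaged 31.1 CPM in the Tppp3 libraries and 25.1 CPM in the controls, without overlap (log2 fold change 0.31 ± 0.080, edgeR adjusted p = 0.639). Of the 12 receptors, 1 lay higher and 0 lower without overlap, against 6.92% and 7.02% of all tested genes. Plxna4 was also the only receptor with an unadjusted p under 0.05 in edgeR. Of all tested genes, 3.67% had such a p as higher and 3.55% as lower. The fibronectin receptor subunit Itga5 stood at -0.37 (edgeR adjusted p = 0.73), at -0.18 without control replicate 2, at -0.23 without Tppp3 replicate 3 and at -0.19 with the pigment epithelium covariate. The plasminogen system, on which S100A10 and ANXA2 act, had 3 negative and 5 positive genes of 8 tested (median 0.08). In this system 0 of the 8 passed in any of the 3 tools, or at an unadjusted p under 0.05 in edgeR. Cytoskeletal targets of SRF and YAP showed 12 negative and 9 positive genes of 21 tested (median -0.05), with 0 past the threshold in the same tools and 0 at an unadjusted p under 0.05.

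Of 25 reactive glia genes tested, none of them among the 10, 10 were negative and 15 positive (median 0.08), with 0 past the threshold in edgeR, DESeq2 or voom. Their summed level was 698.1 to 1750 CPM in the Tppp3 libraries and 693.9 to 1507 CPM in the controls, highest in Tppp3 replicate 2. Gfap, the astrocyte filament gene, had 74.4, 108.9 and 32.9 CPM in the Tppp3 libraries and 39.6, 98.4 and 97.2 CPM in the controls, a spread within each group wider than any difference between them. Tm4sf1 and Ptgs2, described with Emp1 in mouse reactive astrocytes, lay lower without overlap (log2 fold change -0.56 ± 0.18 and -0.57 ± 0.20, edgeR adjusted p = 0.639 and 0.648). The elastic fibre gene Fbln5, from the same list of reactive glia genes, lay higher without overlap (0.66 ± 0.24, edgeR adjusted p = 0.648). Of the 25 genes, 2 lay lower and 1 higher without overlap, against 7.02% and 6.92% of all tested genes.

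Markers of a simple epithelium lay lower in the same libraries as the 10 genes. The summed level of these markers was 101.3 to 124.4 CPM in the Tppp3 libraries and 142.0 to 163.8 CPM in the controls, without overlap. Of 11 tested markers 10 were negative, with a median log2 fold change of -0.79, where 49.1% of all tested genes were negative. Lower without overlap were 7 of them, a pattern seen in 7.02% of all tested genes. The list was chosen with earlier results of these data known, so nothing is read from these counts. Krt7, an epithelial keratin, fell: it had 10.1, 9.56 and 10.5 CPM in the Tppp3 libraries and 19.2, 17.4 and 21.8 CPM in the controls (log2 fold change -0.95 ± 0.11, edgeR adjusted p = 0.0321). That call was lost with any 1 library left out, at an edgeR adjusted p of 0.0625 to 0.303. It was also lost with voom (adjusted p = 0.0642), the replicate block (0.0892), sex as a covariate (0.128) and the pigment epithelium covariate (0.0604). Itgb4 (-0.96 ± 0.13, edgeR adjusted p = 0.065), Krt8 (-0.79 ± 0.12) and Cdh1 (-0.999 ± 0.16, both edgeR adjusted p = 0.115) did not pass in that fit. All 3 passed in DESeq2's Wald test, and in edgeR without the low-count filter, at adjusted p of 0.0265, 0.0432 and 0.0446. Of the defining markers, Krt20 had at most 2 counts in any library, and Krt19 had 1, 1 and 21 counts in the Tppp3 libraries and 0 in each control. Krt18 gave the highest level on the list, at 44.9, 69.0 and 53.8 CPM, against 57.1, 56.5 and 64.2 CPM in the controls, and the groups overlapped. Epcam, at 1.63 to 3.02 CPM in the Tppp3 libraries and 3.87 to 4.52 CPM in the controls, was low in both groups. The part of these cells in the levels of the 10 genes was not tested.

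**Figure D4:**
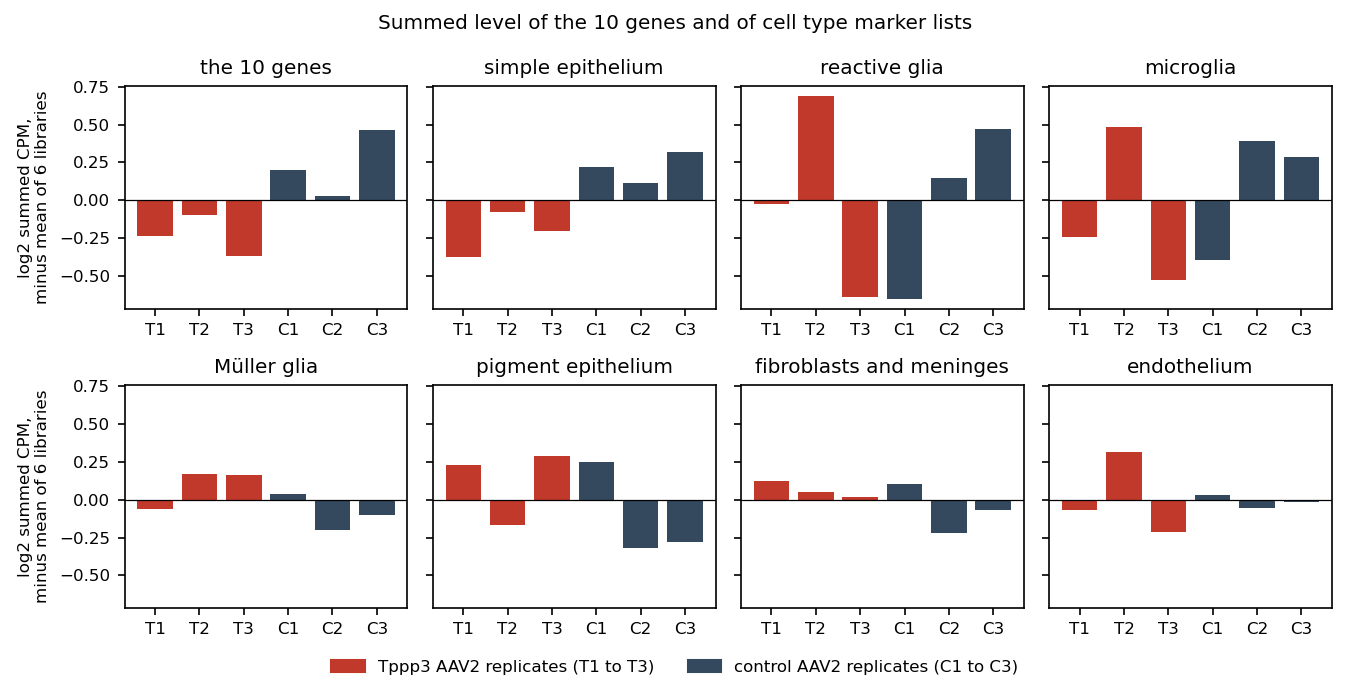
Summed CPM of the 10 genes and of 7 marker lists in each library, as log2 after subtracting the mean of the 6 libraries (y axis), with Tppp3 AAV2 replicates in red and control AAV2 replicates in dark blue. The sums of the 10 genes and of the simple epithelium list do not overlap between the groups, and those of the other lists shown do. The blood myeloid list, not shown, did not overlap either when Fn1 was counted in it. The 10 genes and all lists were chosen with earlier results of these data known, so nothing is read from these separations.

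Other cell types known to express these genes gave overlapping sums, apart from the blood myeloid list when Fn1 was counted in it. Microglia markers summed to 170.0 to 342.8 CPM in the Tppp3 libraries and 186.1 to 321.9 CPM in the controls, with 9 of 11 negative. Blood myeloid markers other than Fn1 summed to 23.6 to 60.6 CPM in the Tppp3 libraries and 27.9 to 55.5 CPM in the controls. With Fn1, the fibronectin gene, the list did not overlap (125.4 to 163.8 and 187.6 to 228.6 CPM), and Fn1 itself fell, at 104.9 ± 4.16 and 160.1 ± 12.8 CPM (SD, n = 3 each; log2 fold change -0.61 ± 0.063, edgeR adjusted p = 0.0138). The Fn1 call was lost without control replicate 3, Tppp3 replicate 2 or Tppp3 replicate 3, at edgeR adjusted p of 0.112, 0.0642 and 0.148, and with sex as a covariate, at 0.0885.

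Endothelial markers summed to 372.8 to 535.7 CPM in the Tppp3 libraries and 415.6 to 440.7 CPM in the controls, mural cell markers to 120.6 to 137.0 and 120.0 to 130.1 CPM, and fibroblast and meningeal markers to 87.8 to 94.4 and 74.4 to 93.0 CPM. All 3 of these sums overlapped. Müller glia markers, 9 of 10 of them positive, summed to 4969 to 5839 CPM in the Tppp3 libraries and 4510 to 5314 CPM in the controls. Pigment epithelium markers, positive in 12 of 12 with a median log2 fold change of 0.67, summed to 590.4 to 811.4 and 533.2 to 787.3 CPM. That sum includes Rlbp1, also on the Müller glia list, which averaged 349 CPM in the Tppp3 libraries and 314.8 CPM in the controls. Of these 12 markers, 2 lay higher and 0 lower without overlap, against 6.92% and 7.02% of all tested genes. Lens markers summed to 4.10 to 29.3 and 2.98 to 8.85 CPM. Ganglion cell sums were 696.8 to 815.9 and 751.3 to 772.0 CPM, and astrocyte sums 76.5 to 157.9 and 78.7 to 142.9 CPM. Rod markers, negative in 10 of 10, summed to 48260 to 57680 and 55170 to 62370 CPM. Corneal and conjunctival markers, of which 3 were tested and 3 negative, summed to 10.4 to 18.9 CPM in the Tppp3 libraries and 14.6 to 20.2 CPM in the controls, with Krt14 at 5.64 to 9.83 and 10.02 to 14.2 CPM, while Krt4 was at 0 throughout. Ciliary and iris epithelium markers, with 8 of 9 positive, summed to 138.9 to 198.7 and 141.8 to 174.7 CPM. Among the lists in this paragraph 0 genes passed in edgeR, DESeq2 or voom. An unadjusted p under 0.05 in edgeR was found for 2 as lower and 1 as higher. Over all tested genes those shares were 3.55% and 3.67%.

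Depth and transcript size went with the same split. Of the 10 genes, 5 have a transcript under 1000 bases, and the 717 tested genes of that size had a median log2 fold change of -0.08. Their centred median was -0.01, -0.03 and -0.06 in Tppp3 replicates 1, 2 and 3 and 0.03, 0.03 and 0.07 in control replicates 1, 2 and 3, so control replicate 3 and Tppp3 replicate 3 were again at the ends. The part of depth and transcript size in the levels of the 10 genes was not tested beyond the values that follow. After a correction per library for GC content and transcript length, the 10 genes kept a median log2 fold change of -0.44, with 9 negative. With every library thinned to 10961443 counts the median was -0.48, and 5 of the 10 were without overlap, against 6.74% of all tested genes.

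The genes whose profile over the 6 libraries was nearest to the common profile of the 10 were sought among 11564 others, by the root mean square distance on the centred log2 scale. They were Ostf1 (0.065), Acot9 (0.089), Bin3 (0.10), Bloc1s1 (0.11), Fmnl1 (0.11), Dglucy (0.12), Rnf122 (0.12) and Stn1 (0.12), where the median over all was 0.31. Ostf1, an SH3-domain protein, averaged 11.5 CPM in the Tppp3 libraries and 14.9 CPM in the controls, and Fmnl1, a formin that builds actin filaments, 17.3 and 21.6 CPM. Acot9, a mitochondrial thioesterase, averaged 6.82 and 8.73 CPM, and Bloc1s1, a subunit of a lysosome-related complex, 13.4 and 17.0 CPM. Having been chosen for their likeness, they are named as a description only.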

How the data were processed

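Poly(A)-selected RNA of injured retina was sequenced as paired reads, per the labels' protocols. The authors deposited 1 table of raw counts, with a row for each gene symbol and a column for each library. GRCm39 (mm39) is the build in the submitters' processing notes; the aligner, counter, annotation and use of strand were not given in the sources used here. How reads shared with pseudogenes, or with Gm30368 (overlapping Lgals1) and Mir3109 (overlapping Anxa2), were counted is thus unknown.

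The labels name 4 control and 3 Tppp3 samples, while their treatment protocol gives 3 control and 4 Tppp3 retinas. The table has 3 control and 4 Tppp3 columns, as in the protocol. Columns were matched to samples by title, which gave 6 libraries. Of the Tppp3 columns, 1 bears the title of no sample and was left unused, and the control sample numbered 4 had no column of its title, so it is not analysed here. Whether replicates are separate animals is not stated, so p-values measure the spread between these libraries. Library pairs differed by more than counting noise (chi-square per gene 4.10 to 13.9).

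Of 25655 genes, 14750 passed edgeR's filter by expression. Counts were scaled by TMM and fitted by edgeR's robust quasi-likelihood method, two-sided, with Benjamini-Hochberg adjustment over all tested genes at 0.05. Each SE is the log2 fold change over the root of its F. Centred profiles used log2 CPM with a prior count of 2. EdgeR's common biological variation came to 11.9%. Counting errors cover counting only. The fit was tested on simulated counts. The 16 alternatives were other scaling, tools and filters, a replicate block, sex or pigment epithelium level as covariate, thinning, a correction for GC content and length, and each library left out. The tools were edgeR 4.0.16, limma 3.58.1 and DESeq2 1.42.0 in R 4.3.3, with figures by matplotlib 3.10.9 in Python 3.11.15.

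The 10 members and all lists were chosen with earlier results of these data known. Of 276 listed symbols 4 had no row. Named were every member, all tested relatives, from every other list at most the 4 genes of lowest p, and the 8 genes nearest in profile among those averaging 5 CPM or more, without predicted genes; some of these are not reported here. Outside this rule, markers named for their absence (Krt4, Krt19, Krt20, S100a5, S100a8, S100a9), Gfap, Epcam, Krt18 and Pdcd6ip were named after their values were seen. Transcript lengths and GC content came from GENCODE M21 (97.9% of tested genes matched), and gene order and promoter sequences, with their coordinates, from RefSeq on GRCm38.p6. Both differ in build from the counts, so no count was placed by them. The replicate numbers did not pair the libraries.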

Additional observations from a re-analysis of the deposited data

How the results depend on the processing

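The median log2 fold change of the 10 genes stayed between -0.62 and -0.36 over 16 alternatives, its ends being single libraries left out, with 9 or 10 genes negative. Overlap was counted in 11 of the alternatives only. The number without overlap between the groups was 5 to 9, while the share over all genes was 6.3% to 12.9%. The 9 came without control replicate 2, where that share was 11.9%. S100a10 changed sign, to 0.093 with pigment epithelium level as covariate and to 0.016 with the correction for GC content and transcript length, which was chosen after seeing the data; the cause was not tested. No relative was called under any alternative.

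Counts of genes called over all genes, 2 as lower and 0 as higher, were 12 and 2 with DESeq2's Wald test, 1 and 0 with limma's voom, 6 and 0 without a low-count filter, 0 and 0 with sex as a covariate, 1 and 1 with the pigment epithelium covariate, and 1 and 0 with the replicate block. Leaving out 1 library at a time gave 0 to 1 as lower and 0 to 2 as higher, from fewer samples. For the other settings the cause was not tested. Of the 10 genes, 1 was among the 6 of all genes called as lower without a low-count filter. Since the 10 were picked from this comparison, nothing is read from that call. With the replicate block the members' median was -0.52. Deviations of same-numbered libraries correlated at -0.0294, 0.0508 and -0.262 over genes, and not every library was nearest to its own number, so the numbers pair nothing.

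Signs turned for relatives near 0. Anxa5 was at -6.3e-05 with DESeq2 size factors, -5.2e-04 with the Wald test, -0.023 with voom, -0.0023 with a mean of at least 1 CPM, -2.5e-04 after thinning and -0.0072 with sex as a covariate, and -0.14 to 0.16 with single libraries left out. Lgals8 was at -0.0042 after thinning and -0.0037 to 0.061 with libraries left out. S100a1 and S100a13 were at 0.13 and 0.066 with the pigment epithelium covariate and at 0.036 and 0.044 with the GC and length correction, and at -0.17 to 0.095 and -0.22 to 0.18 with libraries left out. The same left-out ranges were -0.10 to 0.37 for S100a16 and -0.18 to 0.72 for Lgals9.

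Among the 10 genes, S100a4 had the fewest counts, 59 to 100 per library. Some tested relatives had fewer, such as Emp3 with 3 to 37 and Anxa9 with 10 to 22.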
